A study of Mus musculus with 18 samples.

Results

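The cells described here are thymocytes that carried both coreceptor proteins, CD4 and CD8, on their surface and in which at least 1 RNA molecule of the recombination genes Rag1 or Rag2 was counted. They were chosen by measured values. Each antibody count was scaled to the median antibody total per cell and put on a scale of log2(1 + scaled count), and a cell was kept above 6.3 for the CD4 antibody and above 6.1 for the CD8A antibody with a sum of Rag1 and Rag2 of 1 or more unique molecular identifiers (UMIs, which count captured molecules). This rule kept 66 of 1331 cells, and 187 cells passed the antibody thresholds. The other 121 CD4+CD8+ cells, called other double positives below, had no Rag1 or Rag2 UMI.

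The cells came from 6 female mice, 1 for each combination of donor receptor and host. Each host had received a mixture of 30% donor bone marrow (B6 background, CD45.1.2, carrying either the OT1 or the OT2 receptor transgenes) and 70% CD45.1 competitor marrow. The labels gave the competitor marrow as wild type. The thymus of each host was taken 6 weeks after transplantation at 14 weeks of age. OT1 and OT2 are T cell receptors for peptides of ovalbumin, presented by MHC class I and by MHC class II. PosSelected hosts were wild-type C57BL6, and NegSelected hosts carried RIPmOVA, a transgene for membrane-bound ovalbumin under an insulin (Ins2) promoter. The PosSelected and NegSelected hosts were CD45.2 and the NoSelection hosts CD45.1 (B6.Ly5.1/Ncr). The NoSelection host of OT1 lacked B2m, which MHC class I needs; for the NoSelection host of OT2 one label gave MHC class II deficiency and another gave B2m deficiency. Counts from donor cells do not check either knockout. Donor cells of each mouse were sorted as CD44lo CD45.1.2+ Va2+ Vb5+, so the shares below are shares within that sort, and mice were not pooled.

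Thymocytes that have made a T cell receptor beta chain begin to carry CD4 and CD8 together and rearrange the alpha chain genes with the RAG1 and RAG2 proteins, which cut DNA at recombination signals as a complex. Terminal deoxynucleotidyl transferase, encoded by Dntt, adds bases at the joints. When the receptor of such a double positive recognises peptide on MHC, the Rag genes are turned off, CD5 and CD69 rise at the surface, and the cell goes on to become a CD4+ or CD8+ single positive or dies.

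The 2 antibodies that defined the cells were read through 15-base DNA tags. They are shown because the rule rests on them.
CD4 antibody tag: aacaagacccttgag
CD8A antibody tag: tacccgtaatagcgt
The regions around the starts of Rag1, Rag2 and Dntt, whose RNA the description turns on, are given below from RefSeq on build GRCm38.p6, each from 250 bases before to 50 bases after the annotated start, read on the gene's strand. Capitals mark 2 E-box motifs, CAGCTG and CAGGTG (with its reverse complement CACCTG), of the kind that E proteins such as Tcf12 and Tcf3 recognise.
Rag1, chr2:101649483-101649782, minus strand: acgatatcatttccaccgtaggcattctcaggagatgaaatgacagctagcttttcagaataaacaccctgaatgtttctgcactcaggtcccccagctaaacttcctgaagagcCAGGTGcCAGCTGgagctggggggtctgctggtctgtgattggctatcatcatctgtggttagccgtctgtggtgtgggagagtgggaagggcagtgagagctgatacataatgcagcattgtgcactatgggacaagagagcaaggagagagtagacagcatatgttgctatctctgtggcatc
Rag2, chr2:101624462-101624761, plus strand: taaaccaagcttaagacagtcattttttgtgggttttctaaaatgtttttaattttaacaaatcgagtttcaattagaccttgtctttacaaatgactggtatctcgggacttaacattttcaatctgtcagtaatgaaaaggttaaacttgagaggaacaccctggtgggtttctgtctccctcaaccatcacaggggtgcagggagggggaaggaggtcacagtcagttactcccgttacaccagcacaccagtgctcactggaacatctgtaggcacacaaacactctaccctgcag
Dntt, chr19:41029025-41029324, plus strand: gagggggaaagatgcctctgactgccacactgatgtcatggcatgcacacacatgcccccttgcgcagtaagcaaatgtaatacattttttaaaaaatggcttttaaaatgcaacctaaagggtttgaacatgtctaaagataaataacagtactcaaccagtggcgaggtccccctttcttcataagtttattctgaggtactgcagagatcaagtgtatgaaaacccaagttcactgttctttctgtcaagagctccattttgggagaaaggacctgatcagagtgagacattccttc
The Rag1 window held 1 CAGGTG and 1 CAGCTG, separated by a single base, and the windows of Rag2 and Dntt held neither. Of 32851 such windows in the table, 16.3% held CAGCTG, 20.2% held CAGGTG and 32.9% held either. A match is a run of letters and not a measured binding site.

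RNA UMIs per mouse ran from 525843 to 1867488 and antibody UMIs from 422283 to 1234798. No cell barcode occurred more than once. The 66 members held 138339 RNA UMIs, with a median of 2038.5 per cell and a highest value of 3631, against a median of 2669 and a highest value of 12302 in the other double positives. No doublet caller was run. With 1 mouse per receptor and host, differences between hosts have no replicate and are given without a test; intervals are 95% and cover counting error only, exact Clopper-Pearson for shares and exact Poisson for levels.

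Most members came from the OT2 NoSelection mouse. They made up 39 of its 45 double positives (86.7%, 73.2 to 94.9%), 19 of 66 in the OT2 NegSelected mouse (28.8%, 18.3 to 41.3%) and 5 of 29 in the OT2 PosSelected mouse (17.2%, 5.85 to 35.8%). The NoSelection interval lay above the other 2, and those overlapped each other. In the OT1 mice the shares were 2 of 15 (NoSelection, 13.3%), 1 of 8 (NegSelected, 12.5%) and 0 of 24 (PosSelected, which allows up to 12.5% by a floor of 3 counts, with an exact upper bound of 14.2%). As a share of all sorted cells, members were 36.1% in OT2 NoSelection, 10.7% in OT2 NegSelected, 1.97% in OT2 PosSelected and at most 0.654% in an OT1 mouse. The rule itself defines these shares, and they are given as a description.

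**Figure D1:**
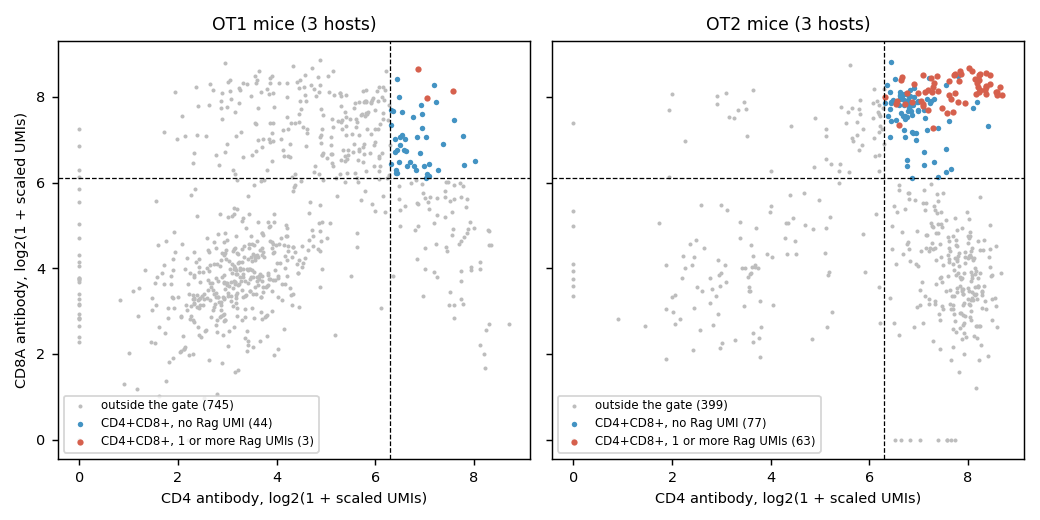
Each point is a cell, placed by its CD4 (x axis) and CD8A (y axis) antibody level on the log2(1 + scaled UMIs) scale, for the 3 OT1 mice and the 3 OT2 mice; dashed lines are the thresholds of 6.3 and 6.1. The 63 members in OT2 mice lie at high CD8A, from 7.27 upwards, and 3 members lie in the OT1 panel.

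The order of the OT2 mice was the same at equal depth. With every double positive thinned to 1000 RNA UMIs, the share was 81.0% in NoSelection (34 of 42), 24.6% in NegSelected (15 of 61) and 6.90% in PosSelected (2 of 29). With 2000 UMIs it was 90.0%, 25.6% and 17.4%, after 25, 27 and 6 shallower cells were left out. A Rag UMI was seen in 1 of 310 CD4+CD8- cells (0.323%), a class that should lack Rag RNA, although their median depth of 3190.5 UMIs was above that of the members.

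**Figure D2:**
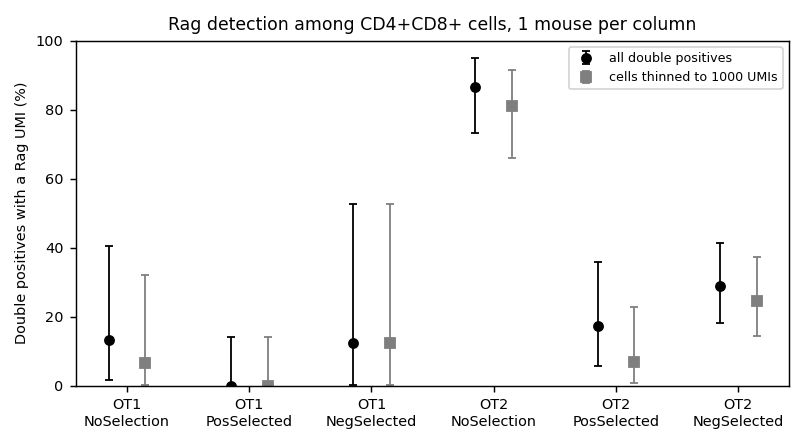
Share of CD4+CD8+ cells with at least 1 Rag1 or Rag2 UMI (y axis, percent) in each of the 6 mice (x axis), for all double positives (circles) and after thinning to 1000 UMIs (squares); bars are exact 95% intervals. OT2 NoSelection stands at 86.7% and 81.0%, above the intervals of the other OT2 mice.

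Rag RNA itself, which chose the cells, was low per cell and uneven. A member held a median of 3 Rag UMIs (1 to 13): 18 members had 1 UMI, 23 had 2 or 3 and 25 had 4 or more. Rag1 without Rag2 was counted in 28 members, Rag2 without Rag1 in 10 and both in 28. Summed over the members of a mouse and scaled to the total RNA UMIs of the same cells as CPM, Rag1 stood at 1557 CPM in NoSelection, 347 in PosSelected and 953 in NegSelected members, and Rag2 at 350.4, 434 and 293. The Rag1 level was highest in NoSelection, while the Rag2 levels were close to each other; the PosSelected values rest on 4 and 5 UMIs. Just inside the CD4 threshold the lowest member stood at 6.32, and the nearest Rag-positive cell outside at 6.22. For CD8A the lowest member stood at 7.27, and the highest CD8A value of a Rag-positive cell outside that passed the CD4 threshold was 2.66. Among all double positives of the 6 mice, 67 lay within 0.5 of the CD4 threshold and 25 within 0.5 of the CD8A threshold. Of the 66 members, 8 lay within 0.5 of either. Members and other double positives thus also differed in their distance from the thresholds, and its part in the comparisons below was not tested.

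The CD4 antibody, also used by the rule, had a median of 8.19 in NoSelection members (7.08 to 8.69), 7.13 in PosSelected members (6.59 to 7.66) and 7.04 in NegSelected members (6.32 to 7.40). The NoSelection members were thus the highest, with ranges that overlapped at their ends. CD8A antibody medians lay closer, at 8.23, 7.87 and 8.12.

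The markers given with the population were checked against CD4+CD8- cells of the same mice. Arpp21, which encodes a phosphoprotein abundant in double positives, was at 1389, 607 and 1320 CPM in NoSelection, PosSelected and NegSelected members and at 32.1, 10.6 and 14.1 CPM in CD4+CD8- cells. Ets2, a transcription factor, was at 753, 1562 and 513 CPM against 128, 115 and 42.2 CPM. Cd8a, which encodes the CD8 alpha chain, was at 2193, 2429.9 and 2738 CPM against 0, 7.06 and 0 CPM. Members were higher in the 3 mice for each of these genes, with no overlap. The CD8A antibody gate separates the 2 classes and so fixes the Cd8a difference, and the markers were chosen with results of these data known, so these values are a description. Of 4 genes listed for CD4 single positives, Zbtb7b and Cd40lg had 0 UMIs in the members of the 3 OT2 mice, while Cd4 and Gata3 were counted. This list summed to 675, 607 and 636 CPM in NoSelection, PosSelected and NegSelected members. The CD4+CD8- cells stood at 641, 619 and 485 CPM. Of 9 genes listed for mature cells, S1pr1 and Il7r had 0 UMIs in these members, and the list held 73, 9 and 38 UMIs. Its summed CPM was lower in members than in CD4+CD8- cells in 3 of 3 mice.

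Within the double positives, members were compared with the other double positives of the same mouse in the 3 OT2 mice, the only ones with at least 5 cells in both classes. Members had more Dntt, Cd8a, Ets2 and Ly6d RNA and less Itm2a, Tmsb10, Cd5 and Cd247 RNA. Of 998 genes tested besides Rag1 and Rag2, 20 (2%) passed an adjusted p of 0.05 in edgeR's quasi-likelihood test with mouse as a term. Of these, 10 (1%) were higher and 10 (1%) lower in members, each in the same direction in 3 of 3 mice. A direction within a single mouse could not always be resolved. The floor of 3 UMIs stood at 260 CPM in PosSelected members and at 249 CPM in the other double positives of NoSelection. Abtb2 was at 0 CPM in PosSelected members against 216 CPM. In NoSelection, Cbfa2t3 was at 208 CPM in members against 0 CPM and Itm2a at 26.0 against 83.1 CPM. The adjustment includes Rag1 and Rag2, whose difference the rule fixed. With both taken out of the table, 13 genes (1.3%) were called, 7 higher (0.701%) and 6 lower (0.601%), and Maml2, Foxn3, Ctsl, Endou, Abtb2, Tox and Cbfa2t3, at an adjusted p of 0.0489 with the Rag genes in, stood at 0.0531. At an unadjusted p of 0.05 there were 112 genes in either case.

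Among the recombination genes tested, Dntt rose. It was at 1441 CPM in members and 415 CPM in other double positives of the NoSelection host, 1736 and 303 CPM in PosSelected, and 1638 and 371 CPM in NegSelected (log2 fold change 2.21, SE 0.29, adjusted p = 0.000679). Every member sum lay above every sum of the other double positives, and the level in members varied little between hosts. Dntt was seen in 36 of 39, 4 of 5 and 17 of 19 members against 2 of 6, 10 of 24 and 21 of 47 other double positives. Of the 14 listed genes of V(D)J recombination and end joining, 3 had enough counts to be tested besides the Rag genes; Dntt was called, while Hmgb1, whose protein bends DNA at recombination signals (log2 1.19, SE 0.32, adjusted p = 0.0755), and Xrcc6, which encodes Ku70 (0.82, SE 0.54, adjusted p = 0.655), were not.

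The coreceptor gene Cd8a was at 2193, 2429.9 and 2738 CPM in members of the NoSelection, PosSelected and NegSelected hosts against 1413, 1125 and 1048 CPM in the other double positives (log2 1.13, SE 0.25, adjusted p = 0.0372). The 2 sets of sums did not overlap. The CD8A antibody, used by the rule, was also higher in members in 3 of 3 mice (log2 0.51). Its lowest values were 7.27, 7.35 and 7.69 in members against 6.14, 6.12 and 6.38 in the other double positives. With both antibody thresholds 0.5 higher, the Cd8a estimate was 0.70 and not called. Cd8a was called in 1 of the 3 fits that left out a mouse. The part of the gate in this difference was not tested. Cd8b1, for the CD8 beta chain, had an estimate similar to the 1.13 of Cd8a and missed the threshold (1.10, SE 0.27, adjusted p = 0.0505). Cd4 stood at 0.36 (SE 0.37, adjusted p = 0.783).

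Ets2 was called (log2 2.23, SE 0.42, adjusted p = 0.0128), with 753, 1562 and 513 CPM in members against 83.1, 188 and 204 CPM. Arpp21 was not: it was higher in members of the PosSelected (607 against 303 CPM) and NegSelected hosts (1320 against 408 CPM) but lower in NoSelection (1389 against 2908 CPM), which gave a log2 fold change of 0.48 (SE 0.43, adjusted p = 0.739). The NoSelection value rests on 6 Rag-negative cells, of which 1 held 19 and another 11 of their Arpp21 UMIs. Rmnd5a stood at 1.73 (SE 0.43, adjusted p = 0.0537) and Aqp11 at 1.21 (SE 0.40, adjusted p = 0.188). Over the 13 tested genes of the preselection list, 11 had estimates above 0, 3 were called higher and 0 lower, and the median was 1.00. Themis (-0.11, SE 0.31) and Satb1 (-0.56, SE 0.25), which encode a signalling adaptor and a chromatin organiser of thymocytes, were the 2 below 0 (adjusted p = 0.947 and 0.404). Over all 998 genes, 509 estimates lay above 0, 10 genes were called higher and the median was 0.01. With Rag1 and Rag2 included, the list summed to 18545 CPM in NoSelection members and 18863 CPM in the other double positives of that mouse. The sums were 13972 against 8382 CPM in PosSelected and 18701 against 9360 CPM in NegSelected. The list was made with earlier results of these data known, so its direction is not independent evidence.

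Other genes called higher lay outside the lists. Ly6d, for a GPI-anchored surface protein, was at 1194, 1302 and 416 CPM in members of NoSelection, PosSelected and NegSelected against 166, 43.3 and 55.7 CPM (log2 3.59, SE 0.47, adjusted p = 0.000679). It was seen in 22 of 39, 2 of 5 and 8 of 19 members, and in PosSelected 1 cell held 14 of the 15 UMIs. The related Ly6e rose from 665, 851 and 547 CPM to 1479, 1649 and 1491 CPM (1.24, SE 0.26, adjusted p = 0.0279). Glcci1, a glucocorticoid-induced transcript, was at 739.7, 781 and 978 CPM against 249, 144 and 241 CPM (2.05, SE 0.34, adjusted p = 0.00565). Ppp1r14b, for an inhibitor of protein phosphatase 1 (log2 2.18), Ctsl, for the protease cathepsin L (2.08), Endou, for an endoribonuclease (3.10), and Cbfa2t3, for a transcriptional corepressor (4.05), completed the genes called higher, with adjusted p from 0.0134 to 0.0489; Ctsl, Endou and Cbfa2t3 were called only with the Rag genes in the adjustment. Cbfa2t3 had 208, 260.3 and 196 CPM in members and 0, 0 and 18.6 CPM in the other double positives, so its fitted fold depends on the prior count.

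The genes called lower included 3 of the 7 tested genes of the post-selection list, or 2 of 7 with the Rag genes out of the table, where Tox is lost. The estimates of the 7 were below 0 with a median of -1.37, beside 489 of 998 estimates below 0 over all genes. Itm2a, for a membrane protein induced during positive selection, was at 26.0, 260.3 and 220.0 CPM in members of NoSelection, PosSelected and NegSelected against 83.1, 1948 and 1846 CPM (log2 -2.88, SE 0.38, adjusted p = 0.000679). The NoSelection sums of both classes were far below the PosSelected and NegSelected sums of the other double positives. Tox, for a nuclear factor needed for CD4 lineage development, was at 182, 781 and 831 CPM against 1163, 1327 and 1772 CPM (-1.37, SE 0.33, adjusted p = 0.0489, or 0.0531 without the Rag genes). H2-K1, an MHC class I heavy chain, was at 169, 0 and 73.3 CPM against 831, 404 and 241 CPM (-2.20, SE 0.50, adjusted p = 0.0425). Cd2, for an adhesion receptor, was lower in 3 of 3 mice and missed the threshold (-1.84, SE 0.47, adjusted p = 0.0565), and Cd27, Cd6 and H2-D1 were nearer 0 (-0.22, -0.10 and -0.69). The lists were made with earlier results of these data known and their directions are not independent evidence.

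Of the genes of receptor signalling, Cd5, for a surface inhibitor of receptor signals, was at 51.9, 260.3 and 367 CPM in members against 166, 1024 and 1048 CPM in the other double positives of NoSelection, PosSelected and NegSelected (log2 -1.64, SE 0.36, adjusted p = 0.0372). The member value was lower within each host. The 166 CPM of the Rag-negative NoSelection cells lay below the floor of that sum (249 CPM), so the NoSelection direction cannot be read. The PosSelected members stood at the floor of their own sum (260 CPM), so their order against those NoSelection cells cannot be read either. The NegSelected members, at 367 CPM, lay above the floor of 249 CPM. Cd5 and Egr1 (-1.15, SE 0.52, adjusted p = 0.404), an immediate early gene, were the 2 of 14 TCR-induced genes with enough counts to be tested. Nr4a1 had 1 UMI and Cd69 had 5 UMIs in all OT2 members together. Cd247, for the CD3 zeta chain, was at 844, 347 and 636 CPM against 2576, 880.1 and 1206 CPM (-1.23, SE 0.27, adjusted p = 0.0372). It was the only gene called of 11 tested for the CD3 complex and proximal signalling, of which 4 had estimates above 0 and 7 below; Lat, for an adaptor, was at 0.74 (SE 0.27, adjusted p = 0.234) and Cd3d at -0.36 (SE 0.26, adjusted p = 0.684).

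Outside these lists, Tmsb10, for an actin-binding thymosin, fell from 3656, 9652 and 7496 CPM in the other double positives to 844, 1389 and 3594 CPM in members (log2 -1.84, SE 0.34, adjusted p = 0.0123), and no member sum reached a sum of the other double positives. Shisa5 (-2.42), Maml2, for a Notch coactivator (-2.33), Abtb2 (-2.05) and Foxn3, for a forkhead factor (-1.40), were also called lower, with adjusted p from 0.0372 to 0.0489, of which Maml2, Abtb2 and Foxn3 were called only with the Rag genes in the adjustment. Among the 11 tested transcription factors of double positives, Tox was called lower (with the Rag genes in the adjustment) and none was called higher; 4 estimates lay above 0 and 7 below. Id3, an inhibitor of E proteins, was lower in PosSelected (86.8 against 822 CPM) and NegSelected members (220.0 against 1058 CPM) and not in NoSelection (182 against 83.1 CPM). The values of 86.8 and 83.1 CPM lay below the floor of 3 UMIs in their sums (260 and 249 CPM), so the NoSelection direction cannot be read. The log2 fold change of Id3 was -1.73 (SE 0.50, adjusted p = 0.0973), and Tcf12 stood at 0.28.

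**Figure D3:**
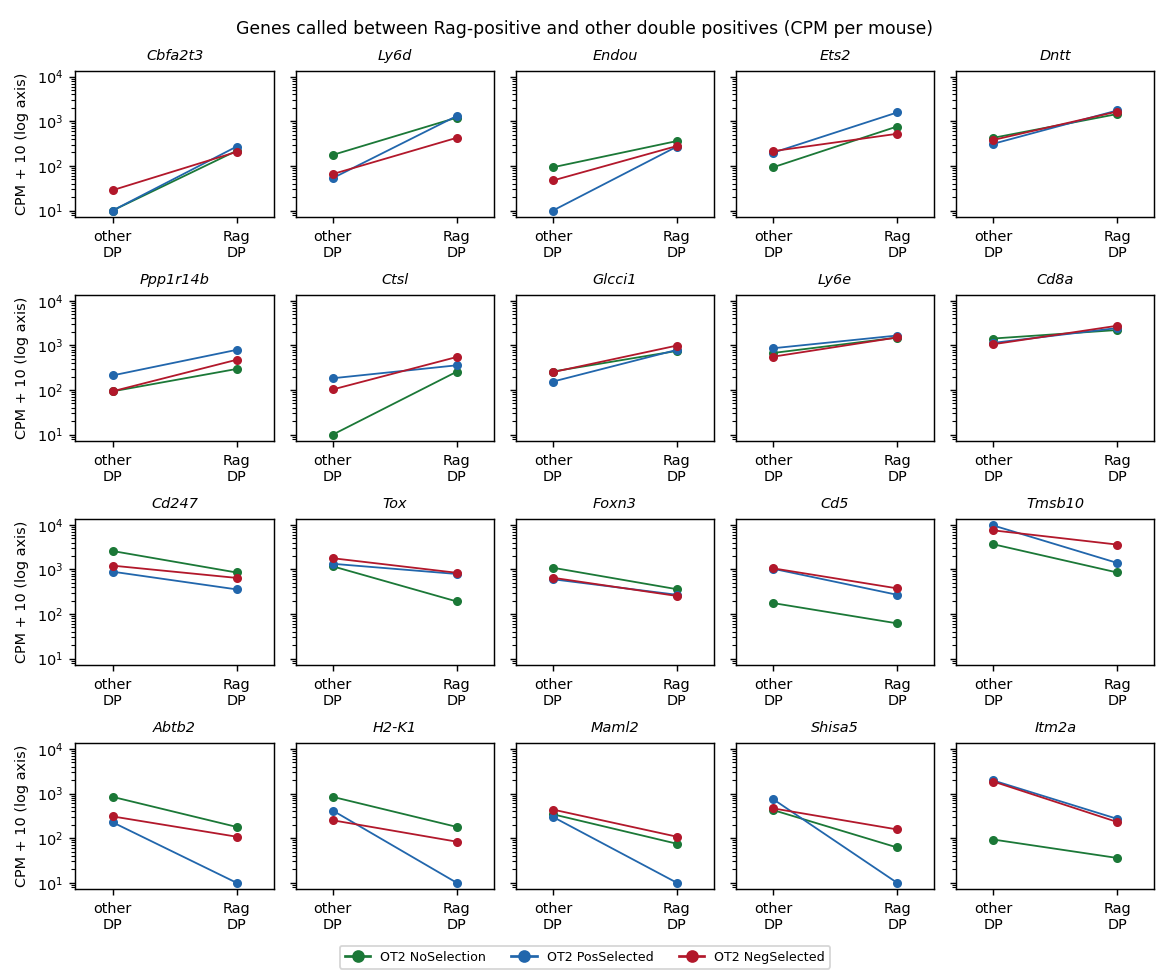
CPM plus 10 (log axis) in the other double positives and in members (x axis) for the 20 called genes, 1 line per OT2 mouse. Lines of the 10 genes in the upper rows rise and those of the 10 genes in the lower rows fall in each of the 3 mice; for Itm2a and Cd5 the NoSelection line lies below the others.

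The calls rest on few cells and on 2 residual degrees of freedom. Of the 20 genes, 5 were called whichever OT2 mouse was left out (Ly6d, Dntt, Ets2, Itm2a and Tmsb10), while the count of called genes was 51 without the NoSelection mouse, 18 without PosSelected and 12 without NegSelected. With at least 2 Rag UMIs required of a member, with both antibody thresholds 0.5 higher, or with cells thinned to 1000 UMIs, 2 mice remained (NoSelection and NegSelected) and 0 were called. At 1000 UMIs per cell the log2 fold changes were 0.68 for Ly6d, 0.77 for Glcci1, 1.19 for Dntt and -1.25 for Tmsb10, against 2.86, 1.88, 2.03 and -1.50 in the same 2 mice without thinning. Members that kept no Rag UMI after thinning counted there among the other double positives. With the higher antibody thresholds Tmsb10 stood at -0.21 and Dntt at 1.52. Members had slightly fewer UMIs than the other double positives in PosSelected (medians 2276 and 2654.5) and NegSelected (2050.0 and 2319) and more in NoSelection (1922 and 1728.5). Their median mitochondrial shares were 2.96%, 2.25% and 2.29% against 2.34%, 1.83% and 2.28%. The part of mitochondrial share in these results was not tested.

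Promoter windows were found for 7 of the 10 genes called higher and 9 of the 10 called lower. An E-box of either kind was present in 4 of 9 windows of the former and 7 of 17 of the latter, beside the 32.9% of all windows.

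At the surface, 0 of 104 antibodies (0%) passed an adjusted p of 0.05 in edgeR's quasi-likelihood test between members and other double positives of the 3 OT2 mice, with 11 at an unadjusted p of 0.05; DESeq2 called 2 and limma-voom 0. Antibody levels here are CPM of the antibody UMIs of a sum. The lowest p values belonged to antibodies that were lower in members in 3 of 3 mice. CD5 antibody was at 11788, 51763 and 70839 CPM in members of NoSelection, PosSelected and NegSelected against 20230 CPM, 97154 CPM and 99751 CPM in the other double positives (log2 -0.63, SE 0.13, adjusted p = 0.181). CD2 antibody was at 3686, 7731 and 11396 CPM against 8898, 14098 and 16034 CPM (-0.76, SE 0.16, adjusted p = 0.181), and CD55, a complement regulator, at 1843, 2351 and 1691 CPM against 5704, 4060 CPM and 2895 (-0.96, SE 0.18, adjusted p = 0.181). For CD5, the NoSelection sums of both classes lay below the member sums of the other 2 hosts. Per cell, the CD5 medians of NoSelection were close, at 5.37 in members and 5.40 in the other double positives on the log2(1 + scaled UMIs) scale.

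Summed per mouse, the antibodies to TCRB, Va2 and Vb5 were also lower in members in 3 of 3 mice without passing the test. TCRB was at 1837, 1130.2 and 1334 CPM in members against 2738, 2873 and 2589 CPM (log2 -0.84, SE 0.20, adjusted p = 0.184). The CD4+CD8- cells of the same mice stood at 12068, 14842 and 16085 CPM, above both classes of double positives. The antibodies to Va2 (-1.57, SE 0.43) and to Vb5 (-0.59, SE 0.16), which the sort also used, had an adjusted p of 0.186 each. The Va2 value of the Rag-negative NoSelection cells, 32170 CPM against 4099 CPM in members, came largely from 1 of the 6 cells, at 9.15 on the log2 scale against 3.41 to 5.94 in the other 5. Per-cell medians in NoSelection were higher in members for TCRB (2.99 against 2.71) and Va2 (4.25 against 4.12). For Vb5 the median was lower in members (3.37 against 3.65). In PosSelected and NegSelected the member medians were lower for each of these antibodies. Without the NoSelection mouse 5 antibodies were called, among them TCRB, Va2 (-0.87), Vb5 (-0.72) and CD55 (-0.71) as lower. The fifth, the antibody to MHC class II (I.A-I.E), named here after its values were seen, was higher in members (log2 1.05, adjusted p = 3.1e-06), with 12477 against 5153 CPM in PosSelected and 7883 against 4807 CPM in NegSelected; in NoSelection it was lower, at 1729 against 5779.9 CPM, and with the 3 mice the log2 fold change was 0.29 (SE 0.57, adjusted p = 0.9). The fit without the NoSelection mouse held 2 mice, with 5 members in PosSelected, so its small adjusted p rests on few cells. The 6 Rag-negative NoSelection cells also had a median antibody total of 1871.5 UMIs against 4720 in members of that mouse, and the part of this depth in these values was not tested. Antibodies higher in members in 3 of 3 mice included CD8B (0.42, SE 0.11), TCRVG1.1 (0.44, SE 0.12) and the integrin CD49D (0.46, SE 0.14), none of them called.

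Between hosts, Tox and Tmsb10 RNA and CD5 protein had their lowest values in NoSelection members, while Dntt and Cd8a RNA differed by less than their intervals. Cd5 and Itm2a RNA were lower in NoSelection than in NegSelected members. Their PosSelected values stood at the floor of that sum (260 CPM). Of 1082 genes with at least 20 UMIs over the members of both mice, 65 (6.01%) were past 2-fold higher and 66 (6.1%) past 2-fold lower in NegSelected than in NoSelection members. For 6 of them, 1 a receptor segment gene, the whole 95% interval of the ratio lay past 2-fold. There is 1 mouse per host, so these are differences between 2 mice.

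Tox was counted in 14 of 19 NegSelected members (831 CPM, 576 to 1161) and in 11 of 39 NoSelection members (182 CPM, 99.3 to 305), a ratio of 4.57 (2.39 to 9.23), with 781 CPM in PosSelected. Tmsb10 was at 3594 CPM in NegSelected, 844 CPM in NoSelection (ratio 4.26, 3.16 to 5.80) and 1389 CPM in PosSelected. Cd5 and Itm2a were also lower in NoSelection than in NegSelected members, with 4 and 2 UMIs in 39 cells against 15 and 9 UMIs in 19 cells. Their PosSelected values stood at the floor of that sum (260 CPM), so the order of PosSelected against NoSelection cannot be read. Cd2 had 0 UMIs in NoSelection members and 8 in NegSelected members, 5.02-fold above a floor of 3 UMIs in the NoSelection sum. That fold leaves out counting error in the 8 UMIs, which lie under the minimum of 20 set for host ratios.

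Genes lower in NegSelected than in NoSelection members, with the whole interval past 2-fold, were Camk1d, for a calcium/calmodulin-dependent kinase (2811 against 8955 CPM, ratio 0.31, 0.26 to 0.38), Gphn, for the scaffold protein gephyrin (636 against 2738 CPM, ratio 0.23, 0.15 to 0.35), and Il31ra, for a cytokine receptor (1540.1 against 4192 CPM, ratio 0.37, 0.28 to 0.48). PosSelected members lay between these hosts for each of the 3, at 6075, 1475 and 3037 CPM. Ly6d was also lower in NegSelected members (416 CPM) than in NoSelection members (1194 CPM; ratio 0.35, 0.19 to 0.59). Ptcra, for the pre-T alpha chain that pairs with the beta chain before alpha rearrangement, was counted in 9 of 39 NoSelection members and in 0 of 5 and 0 of 19 members of PosSelected and NegSelected. Its 169 CPM in NoSelection was 2.30-fold above the floor of 3 UMIs in the NegSelected sum, while the PosSelected sum was too shallow to show such a level. That fold leaves out counting error in the 13 NoSelection UMIs, which also lie under the minimum of 20.

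Dntt (1441 and 1638 CPM, ratio 1.14, 0.83 to 1.55), Arpp21 (1389 and 1320 CPM, ratio 0.95, 0.67 to 1.33) and Cd8a (2193 and 2738 CPM, ratio 1.25, 0.97 to 1.59) had intervals that held 1 between NoSelection and NegSelected members. A ratio of 2 was outside each of the 3 intervals. Rag1, used by the rule, had a ratio of 0.61 (0.42 to 0.89).

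**Figure D4:**
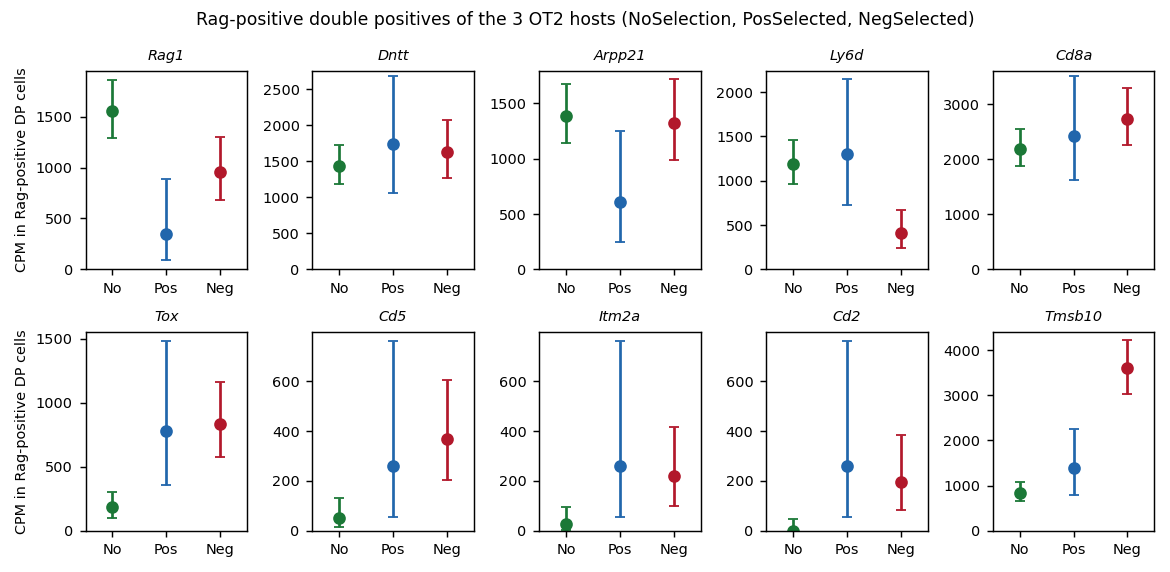
CPM (y axis) of 10 genes summed over members of the NoSelection (39 cells), PosSelected (5 cells) and NegSelected (19 cells) OT2 mice, with exact Poisson 95% intervals; each panel starts at 0 and has its own scale. Dntt and Cd8a overlap across hosts, and Tox, Cd5, Itm2a, Cd2 and Tmsb10 have their lowest values in NoSelection. The PosSelected values of Cd5, Itm2a and Cd2 stand at the floor of 3 UMIs (260 CPM), so their order against NoSelection cannot be read.

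For PosSelected members, 56 of 733 genes (7.64%) were past 2-fold higher and 102 (13.9%) lower than in NoSelection members, and of 367 genes with enough UMIs 42 (11.4%) were past 2-fold higher and 18 (4.9%) lower in NegSelected than in PosSelected members. With 5 cells and 11523 UMIs in the PosSelected sum, the interval lay wholly past 2-fold for 1 gene in the first of these, a receptor segment gene. In the second it did so for Cmss1 (5940.3 against 16055 CPM) and Zc3h7a (269 against 1475 CPM), both lower in NegSelected.

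CD5 protein per cell was lower in NoSelection members than in those of the other 2 hosts, with ranges that overlapped. Its median was 5.37 in the 39 NoSelection members (2.87 to 7.54), 7.95 in the 5 PosSelected members (4.59 to 8.98) and 7.96 in the 19 NegSelected members (6.04 to 9.21) on the log2(1 + scaled UMIs) scale. Of the NegSelected members 13 of 19, and of the PosSelected members 3 of 5, lay above the highest NoSelection member, and 11 of 39 NoSelection members lay above the lowest NegSelected member. CD2 had medians of 3.79, 5.83 and 5.82, while CD69 had 3.90, 4.27 and 4.02 and TCRB 2.99, 2.61 and 2.66, with ranges that overlapped. CD24, a marker of immature thymocytes, stood at 5.53, 5.23 and 5.48. For CD5 and for CD2, RNA was lower in NoSelection than in NegSelected members, and the antibody median was lowest in NoSelection members. Cells are not replicates of a host.

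**Figure D5:**
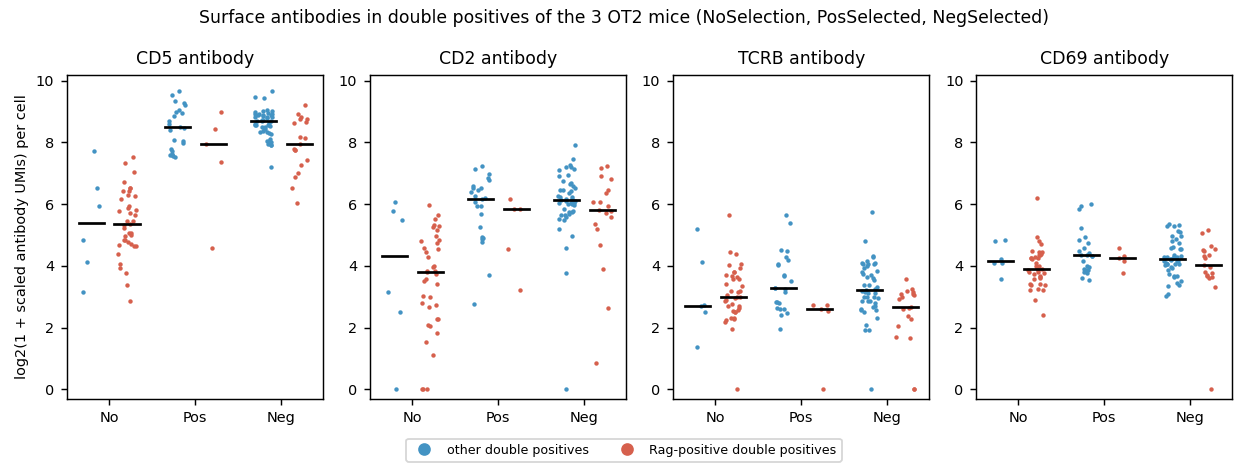
Antibody level per cell on the log2(1 + scaled UMIs) scale (y axis) for CD5, CD2, TCRB and CD69 in other double positives (blue) and members (red) of the 3 OT2 mice (x axis); black bars are medians. CD5 medians of members are 5.37, 7.95 and 7.96, and CD69 medians 3.90, 4.27 and 4.02.

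Within a host, members were also divided by their number of Rag UMIs. In NoSelection members with 1, with 2 or 3 and with 4 or more Rag UMIs (5, 17 and 17 cells), Dntt was at 466 CPM (127 to 1193), 1399 CPM (1025 to 1867) and 1714 CPM (1311 to 2201). The first interval overlapped the second and not the third. In NegSelected members (9, 5 and 5 cells) it was at 1288, 2098 and 1696 CPM with overlapping intervals. Cd5 was at 468, 437 and 161 CPM in the same NegSelected groups and Itm2a at 409.8, 87.4 and 80.7 CPM, on 8, 5 and 2 UMIs and on 7, 1 and 1 UMIs, so that no order can be read at this depth. Ly6d in NoSelection members was at 1631 CPM (891 to 2736), 1460.3 CPM (1077 to 1936) and 843 CPM (569 to 1203), with overlapping first and last intervals. That order is the reverse of the Dntt order. In NegSelected members Ly6d was at 761 CPM (405 to 1301), 349.6 CPM and 0 CPM (0 to 298), where the first and last did not overlap. These NegSelected values rest on 13, 4 and 0 UMIs, with 9 of the 13 in 1 cell, so no trend can be read. Rag UMIs, which divide the members here, also chose them, and the intervals cover counting error only.

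Markers of other cell types were at 0 for some lists and present for others. The myeloid, NK and erythroid lists had 0 UMIs. Of the B cell markers, Cd79a and Ms4a1 were at 0; Ighm was at 454, 521 and 342 CPM in members and 0, 433 and 232 CPM in the other double positives, and Cd79b had 6 UMIs in OT2 members. Ighm was thus higher in members in 3 of 3 mice, without being called, and was seen in 21 of 39, 3 of 5 and 8 of 19 members; its part in the other results was not tested. Of 6 gamma delta markers, Sox13 and Trdc held 4 UMIs together in OT2 members, and Foxp3, Ctla4 and Tnfrsf4 of 4 regulatory T cell markers were at 0, with 4, 1 and 2 UMIs of Il2ra. Of 13 cell cycle genes, Top2a, Rrm2, Cdk1, Ccnb2 and Birc5 were at 0 in OT2 members, and the summed level of the list was 934, 868 and 807 CPM in members against 415, 1486 and 1141 CPM in the other double positives. The maturation list of 9 single-positive genes summed to 947, 781 and 929 CPM in members against 2992, 1933 and 1539.9 CPM, lower in members in 3 of 3 mice.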

How the data were processed

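RNA and antibody libraries of 6 mice were used, and receptor libraries were not. The authors deposited raw UMI counts per gene and per antibody for each cell, without normalization. Build mm10, Cell Ranger 8.0.1 and Seurat are named per the submitters' processing notes; hashtag assignment, cell filters and doublet handling are not given in the sources used here. Cells were tied to mice by hashtag. Replicates are single mice, so host differences have no test.

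Counts were summed per mouse and class and tested with edgeR 4.0.16 in R 4.3.3 (quasi-likelihood, TMM, filterByExpr, mouse term, two-sided, Benjamini-Hochberg over all genes), tested on simulated data: of 200 changed genes among 1000, 23%, 81.5% and 95% were recovered at log2 changes of 1, 2 and 3. A minimum of 10 cells per class, set at first, left 1 mouse, so the fit reported uses 5 cells. The mouse term pairs the sums because both classes come from the same animal. DESeq2 1.42.0 and limma 3.58.1 gave alternatives.

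Named genes were members of the marker and pathway lists and, per comparison, up to 12 called genes in each direction averaging 50 CPM or more and of equal sign in every mouse, without receptor segments; for host ratios, genes whose interval lay past 2-fold. Antibodies were the 6 with the lowest p in each direction. Members, lists and tests were chosen with earlier results of these data known. Folds against a sum with 0 UMIs use a floor of 3 UMIs per sum and leave out counting error in the other sum. Shares of Rag-positive cells were also computed after thinning to 2000 and 1000 UMIs with Python 3.11.15 and numpy 2.4.6.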

Additional observations from a re-analysis of the deposited data

How the results depend on the processing

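None of the 20 called genes changed direction under any alternative that tested it; 132 of 257 such estimates missed the threshold, and some shrank: Tmsb10 to -0.21 with higher antibody thresholds, and Ly6d to 0.68 and Glcci1 to 0.77 at 1000 UMIs per cell. The count of called genes was 5 with DESeq2, 32 with limma-voom, 7 with RLE size factors, 1 of 11618 genes without the filter on low counts, and 37 with no replicate block (mouse term left out). It was 0 with at least 2 Rag UMIs, 0 with antibody thresholds 0.5 higher and 0 at 1000 UMIs per cell, each with 2 mice, and 13 without Rag1 and Rag2 in the table. Leaving out each mouse gave 12 to 51 called genes. For antibodies the count was 2 with DESeq2 (CD55 and Va2) and 0 to 5 when each mouse was left out. Arpp21 was below 0 with higher antibody thresholds (-0.12) and at 1000 UMIs (-0.038), and ran from -0.36 to 1.49 when each mouse was left out; Themis ran from -0.57 to 0.41 when each mouse was left out. The cause was not tested. The OT2 NegSelected share was 15.2% with at least 2 Rag UMIs, and no other share left its interval. Thinning to 1000 UMIs, the removal of Rag genes, the CD4+CD8- sums in the fit and the host ratios under other thresholds were chosen after seeing the data. Fits with 10 or 20 cells per class or 2000 UMIs per cell left too few mice. The tests of the receptor difference (OT1 had 3 members) and of hosts could not be fitted. RLE scaling moved the median of all genes by -0.01. Depth limits what could be seen: 998 of 11618 genes with counts passed the filter.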

Other observations

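Of 81 cells with a Rag UMI, 15 (18.5%) lay outside the CD4+CD8+ gate: 8 of 283 CD4-CD8+ cells, 6 of 551 cells low for both coreceptors and 1 of 310 CD4+CD8- cells. In the OT2 NoSelection mouse 3 of its 5 CD4-CD8+ cells had a Rag UMI; they held 14, 6 and 6 Dntt UMIs and 12, 9 and 11 Arpp21 UMIs, and their CD4 antibody values of 5.61, 5.12 and 5.59 were below the threshold of 6.3. A cell of that mouse low for both coreceptors held 16 Rag1 UMIs with 9 Dntt and 7 Arpp21 UMIs. The CD4+CD8- cell, in the OT2 PosSelected mouse, held 2 Rag2 UMIs and 0 of Dntt and Arpp21. Of the 15, 9 held more RNA UMIs than the deepest member, which had 3631.

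The 3 members in OT1 mice held 8854 RNA UMIs in all, with 14 Dntt, 11 Arpp21, 11 Cd8a and 2 Ptcra UMIs and 0 of Cd2. One of them, in the NegSelected host, had 13 Rag UMIs, the most of any member.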
